A study of Mus musculus with 6 samples.

Results

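The genes described here make the sugar chain that is attached to asparagine residues of secreted and membrane proteins, from the supply of activated sugars to the enzyme that transfers the finished chain. They were taken as a named list of 42 genes and matched by symbol to the Ensembl identifiers of the deposited count table, which gave 41 genes among the 43271 in the table; 1 listed subunit of the transferase was not analysed here. All 41 passed the filter on low counts. By role, 9 supply sugar nucleotides, 5 make or recycle dolichol, 16 assemble the lipid-linked oligosaccharide and 11 are subunits of the oligosaccharyltransferase.

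The cells were primary brain microvascular endothelial cells of wild-type C57BL/6 mice, grown to confluence between passages 2 and 6 in medium with 5% serum, growth factors and hydrocortisone. Treatment lasted 24 h, with dimethyl sulfoxide as vehicle (DMSO, 3 libraries) or with 5000 ng/ml of dolutegravir (DTG, 3 libraries), a drug against HIV integrase. By its title, the study asked about the blood-brain barrier and stress of the endoplasmic reticulum (ER). Nothing in the labels says that replicates are separate cultures. The p-values therefore measure the spread between these samples only, and that spread may be technical.

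N-glycosylation runs in stages. The hexosamine route turns fructose 6-phosphate into UDP-N-acetylglucosamine (UDP-GlcNAc), and a parallel route makes GDP-mannose. Both sugars are added stepwise to dolichol, a long isoprenoid lipid, on the cytosolic face of the ER membrane. More mannose and then glucose are added on the lumenal face. Oligosaccharyltransferase moves the completed chain from dolichol to nascent or newly made proteins. Endothelial cells secrete and display many N-glycoproteins, and several genes of the hexosamine route are known targets of the XBP1 branch of the unfolded protein response.

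Total counts were between 41162353 and 56316335 per library, so counting error was small for genes of this list, whose lowest member, Alg6, still held at least 214 counts in each library. Expression is given in CPM, counts scaled to a library size adjusted by TMM, a normalization that centres most genes. Library names carry a P4 or P5 tag that the labels do not define: DMSO replicate 1 and DTG replicates 2 and 3 are P4, and DMSO replicates 2 and 3 and DTG replicate 1 are P5. All 10 endothelial markers were tested, and their summed level was 11159 to 12134 CPM in DMSO and 6835 to 7147 CPM in DTG. Of the 10, 8 were lower and 0 higher, against 29.3% and 27.4% of all genes tested. Much of the fall lay in Vwf (2958 ± 422 to 950 ± 37.7 CPM) and Kdr (1853 ± 78.0 to 796 ± 72.8 CPM, SD, n = 3 each). Cdh5 (1874 ± 117 to 2115 ± 106 CPM) and Flt1 (399 ± 20.2 to 419 ± 26.2 CPM) did not pass. Mural and epithelial markers summed to at most 1.06 and 0.092 CPM in any library, although the mural marker Pdgfrb rose from 0.20 ± 0.04 to 0.72 ± 0.19 CPM (SD, n = 3 each). Microglial and macrophage markers summed to between 23.6 and 29.5 CPM in DMSO and between 6.26 and 7.74 CPM in DTG, nearly all of it from Tmem119, with Ptprc, P2ry12 and C1qa at or near 0. Astrocyte markers summed to between 56.5 and 65.3 CPM in DMSO and between 203.2 and 248.8 CPM in DTG, nearly all of it from Gja1, which endothelial cells also express, with Aqp4, Slc1a2 and Slc1a3 at or near 0. Fibroblast markers summed to at most 8.68 CPM in any library, with a rise of Col1a1 from 0.43 ± 0.08 to 0.84 ± 0.25 CPM. Oligodendrocyte markers summed to at most 49.96 CPM in DMSO and 42.3 in DTG, with Mog, Mag and Sox10 at or near 0, and neuronal markers to between 58.6 and 82.6 CPM in DMSO and between 57.6 and 92.8 in DTG, nearly all of it from Nefl, with Snap25 at or near 0. Within that sum Tubb3, a tubulin gene used as a neuronal marker, rose 43.1-fold from 0.10 ± 0.01 to 4.59 ± 2.15 CPM (5.43 ± 0.49 log2, edgeR adjusted p = 2.00e-05). The part of these shifts in the results below was not tested, and in bulk RNA fewer cells of a type and less RNA per cell cannot be told apart.

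Promoter sequences were at hand from RefSeq (GRCm38.p6, 250 bases before to 50 bases after a start site) for 35 of the 41 genes, with 38 promoters. Those of Gnpnat1, Gmppb, Dpagt1, Alg2, Alg11 and Ostc were not searched. These were searched on both strands for the letters of stress-response elements, because most of these genes moved together. The ER stress response element, known as ERSE (CCAAT, 9 bases of any kind, then CCACG), was present in 1 of 38 promoters (2.63%) and in 0.119% of all 32851 promoters of the table (0.106% for genes tested). Its variant ERSE-II (ATTGG, 1 base of any kind, then CCACG) was also present in 1 of 38 promoters (2.63%) and in 0.0365% of all promoters (0.0684% for genes tested). The element UPRE (TGACGTGG) and the ATF4-type element CARE (TGATGNAA) had 0 matches among the 38, against 0.676% and 3.97% of all promoters and 0.775% and 2.32% of the promoters of genes tested, which says only that these letters are not in these windows. The short element CCACG, which is contained in ERSE and ERSE-II, was found in 57.9% of the 38 promoters, against 32.8% of all promoters and 45.9% of the promoters of genes tested. The core ACGTG, contained in UPRE, was found in 39.5%, against 19.6% and 25.1%. A match of letters describes the sequence and is not a binding site.

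The promoters with a complete ERSE or ERSE-II among those searched are shown first, with the letters of the element in capitals, followed by those of the genes with the highest rise and the largest fall, with CCACG on either strand in capitals. The Alg12 promoter lies at chr15:88819269-88819568 (minus strand), with its ERSE starting 220 bases before the start site. The Krtcap2 promoter shown lies at chr3:89246223-89246522 (plus strand), with its ERSE-II starting 17 bases after its start site. Another Krtcap2 promoter, at chr3:89246188-89246487 with a start further upstream, held no complete ERSE-II. The Gfpt1 promoter lies at chr6:87042596-87042895 (plus strand) and the Srd5a3 promoter at chr5:76140023-76140322 (plus strand).
Alg12: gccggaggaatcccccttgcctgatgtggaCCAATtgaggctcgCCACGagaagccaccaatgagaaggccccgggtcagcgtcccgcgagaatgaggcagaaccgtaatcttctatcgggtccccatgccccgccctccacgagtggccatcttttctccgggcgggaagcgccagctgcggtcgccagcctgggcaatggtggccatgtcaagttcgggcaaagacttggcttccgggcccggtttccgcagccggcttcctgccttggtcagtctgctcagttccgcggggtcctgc
Krtcap2: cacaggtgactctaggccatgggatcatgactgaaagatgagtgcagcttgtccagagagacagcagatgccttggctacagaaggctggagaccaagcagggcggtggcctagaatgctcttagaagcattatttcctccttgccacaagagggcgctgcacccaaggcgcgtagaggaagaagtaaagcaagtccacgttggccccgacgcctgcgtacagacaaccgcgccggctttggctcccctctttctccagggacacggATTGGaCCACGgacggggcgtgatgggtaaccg
Gfpt1: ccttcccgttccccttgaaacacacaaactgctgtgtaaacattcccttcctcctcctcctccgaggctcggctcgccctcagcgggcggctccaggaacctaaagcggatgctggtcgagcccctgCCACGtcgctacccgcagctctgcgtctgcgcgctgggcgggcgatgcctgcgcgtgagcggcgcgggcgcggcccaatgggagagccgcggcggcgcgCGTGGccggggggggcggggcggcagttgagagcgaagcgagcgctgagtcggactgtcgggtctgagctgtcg
Srd5a3: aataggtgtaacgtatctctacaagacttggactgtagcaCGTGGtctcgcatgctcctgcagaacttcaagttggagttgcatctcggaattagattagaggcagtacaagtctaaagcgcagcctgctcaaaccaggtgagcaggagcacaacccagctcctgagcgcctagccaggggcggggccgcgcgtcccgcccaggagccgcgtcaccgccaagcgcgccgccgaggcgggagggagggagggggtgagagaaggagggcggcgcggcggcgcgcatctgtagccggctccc

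Alg12 and Krtcap2 each rose, by 1.04 ± 0.09 and 1.12 ± 0.08 log2 (SE). In both cases the promoter faces that of a gene on the opposite strand, with starts within 1000 bases of each other. The neighbour of Alg12 is Creld2, the gene of an ER-resident protein, which went from 43.3 ± 5.18 to 1995 ± 431 CPM (SD, n = 3 each), a 46.1-fold rise. The neighbour of Krtcap2 is Trim46, which went from 2.73 ± 0.66 to 21.5 ± 3.90 CPM, a 7.91-fold rise. Of 11 such divergent neighbours of the list that were tested, 4 rose, 2 fell and 5 did not pass. The 2 that fell were Abhd4 beside Dad1 and Fen1 beside Tmem258, while Dad1 and Tmem258 themselves rose. Over all genes tested 27.4% rose and 29.3% fell, so counts over so few neighbours do not set them apart from other genes.

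Across the list, 30 of 41 genes rose and 3 fell, with 8 that did not pass (adjusted p under 0.05). Of all 14101 genes tested, 56.7% were called, of which 27.4% rose and 29.3% fell, as shares of all tested. The median log2 change was 0.59 for the list and -0.01 for all genes tested. A rise of at least 2-fold was called for 13 of 41, against 6.28% of all genes. In 30 genes every DTG library lay above every DMSO library and in 3 below, whereas 64.2% of all genes were apart, 31.1% above and 33.1% below. With library size alone as scaling, 24 rose and 3 fell, and the shares over all genes were then 18.0% and 40.6%.

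**Figure D1:**
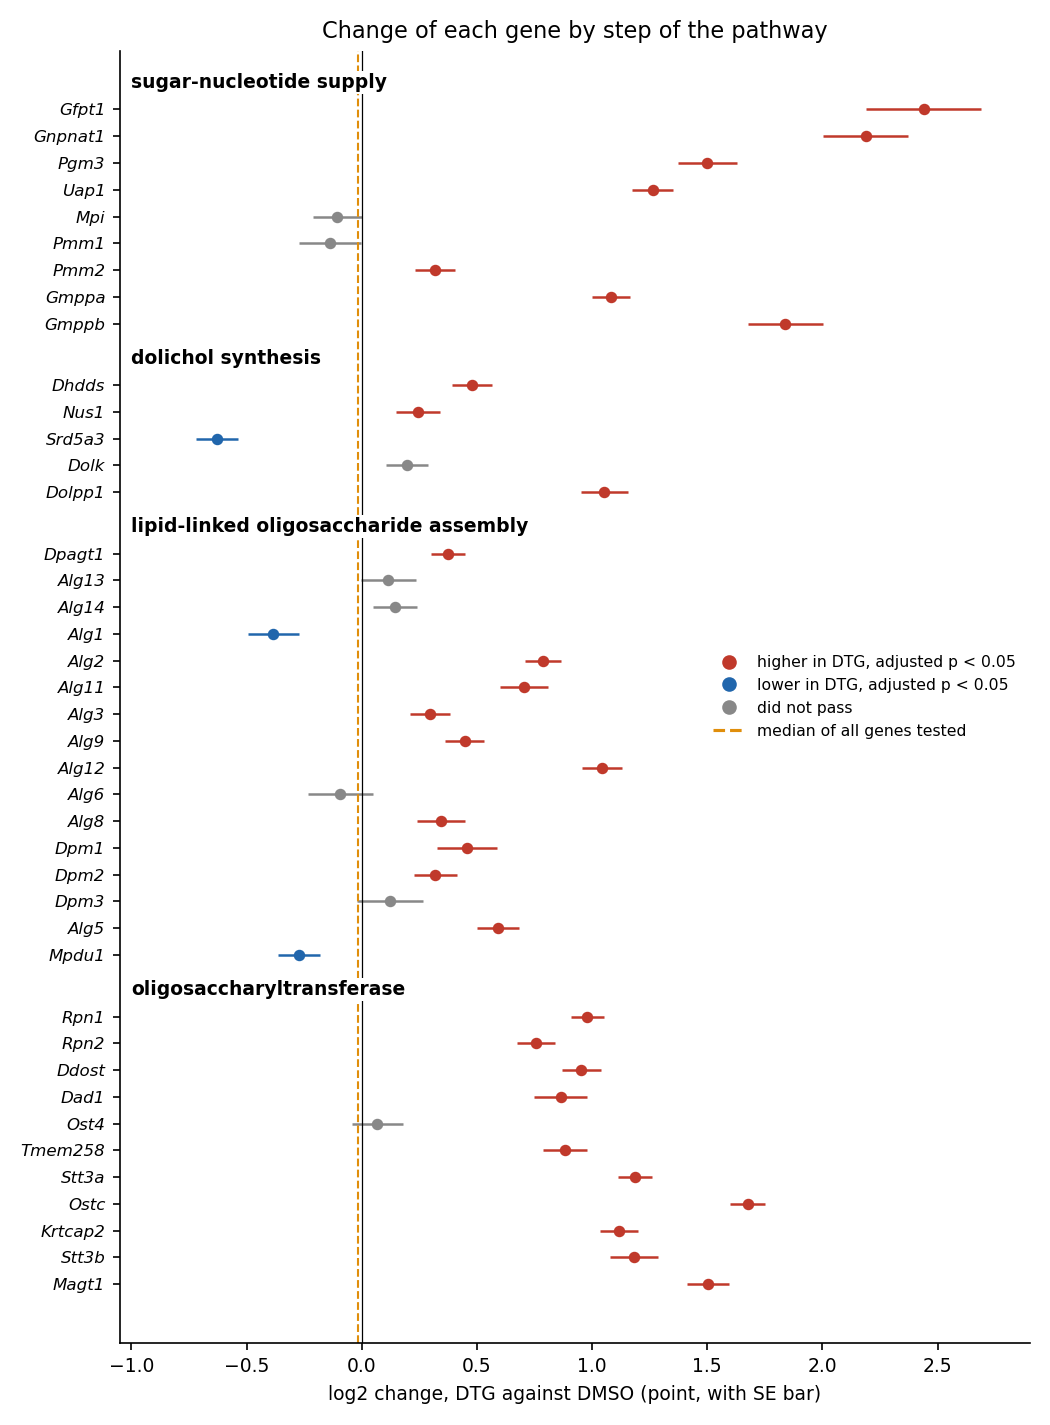
Log2 change of each gene in DTG against DMSO (horizontal axis), with the SE as a bar, grouped by step of the pathway. Red points rose, blue points fell and grey points did not pass. The dashed line is the median of all genes tested (-0.01). Sugar-nucleotide and oligosaccharyltransferase genes reach the largest values, while Srd5a3, Alg1 and Mpdu1 lie on the lower side.

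The hexosamine branch of sugar-nucleotide supply rose in all 4 of its genes, against 27.4% of all genes tested. Gfpt1, the aminotransferase that commits fructose 6-phosphate to the route and sets its rate, was at 94.6, 81.6 and 93.2 CPM in the DMSO libraries and at 304.0, 598.7 and 558.7 CPM in the DTG libraries. The groups did not overlap, and DTG replicate 1, the P5 library, lay well below the other DTG libraries. The change was 2.44 ± 0.25 log2 (SE), or 5.42-fold, with adjusted p = 0.000171. In P4 libraries alone the difference was 2.61 log2, and in P5 libraries alone 1.80. It had the highest log2 change of the 41 genes.

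Gnpnat1, which acetylates glucosamine 6-phosphate, was at 7.44, 7.47 and 8.24 CPM in DMSO and at 24.5, 40.8 and 40.2 CPM in DTG. DTG replicate 1 was again the lowest of its group and still above every DMSO library, with a change of 2.19 ± 0.18 log2 (4.56-fold, adjusted p = 9.76e-06). In the annotation at hand 3376 of the 3590 exon bases of Gnpnat1 also lie in Styx on the opposite strand, and the strand setting of the counting is not stated. Styx differed by 0.12 ± 0.13 log2 and did not pass. Pgm3, the mutase that moves the phosphate of N-acetylglucosamine, was at 11.8, 10.4 and 11.5 CPM in DMSO and at 25.6, 35.9 and 33.8 CPM in DTG. It rose 2.83-fold (1.5 ± 0.13 log2, adjusted p = 8.22e-06). Uap1, the pyrophosphorylase that forms UDP-GlcNAc, was at 34.7, 35.0 and 34.3 CPM in DMSO and at 73.0, 88.9 and 87.9 CPM in DTG. It rose 2.40-fold (1.26 ± 0.09 log2, adjusted p = 2.59e-06). The log2 changes fell in the order of the reactions, from Gfpt1 through Gnpnat1 and Pgm3 to Uap1, but the differences between these genes were not tested.

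In the GDP-mannose branch 3 of 5 genes rose and 0 fell, against 27.4% and 29.3% of all genes tested. Mpi, the isomerase that links fructose 6-phosphate to mannose 6-phosphate, was at 18.4, 20.3 and 16.6 CPM in DMSO and at 18.7, 16.3 and 16.5 CPM in DTG, with overlapping groups (-0.11 ± 0.11 log2, adjusted p = 0.41). Of the phosphomannomutases, Pmm1 was at 40.5, 34.3 and 26.3 CPM in DMSO and at 28.9, 32.2 and 30.8 CPM in DTG, with overlapping groups (-0.14 ± 0.14 log2, adjusted p = 0.407). Leaving out DMSO replicate 3 made it pass as lower (adjusted p = 0.0325). Its paralog Pmm2, the form whose loss causes the most common congenital disorder of glycosylation, was at 41.1, 41.3 and 38.8 CPM in DMSO and at 45.1, 51.7 and 54.6 CPM in DTG, a rise of 0.32 ± 0.09 log2 (adjusted p = 0.0104) that did not pass with library size alone (adjusted p = 0.163).

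GDP-mannose pyrophosphorylase, which makes the activated sugar itself, rose in both subunits. The catalytic subunit gene Gmppb was at 21.5, 21.5 and 17.9 CPM in DMSO and at 53.8, 84.2 and 80.3 CPM in DTG, a 3.58-fold rise (1.84 ± 0.16 log2, adjusted p = 1.49e-05). The regulatory subunit gene Gmppa was at 29.9, 29.5 and 25.8 CPM in DMSO and at 61.5, 59.3 and 59.8 CPM in DTG, a 2.12-fold rise (1.08 ± 0.08 log2, adjusted p = 3.63e-06). DTG replicate 1 was the lowest DTG library for Gmppb and the highest for Gmppa. As a within-library ratio, which does not depend on scaling, Gmppb stood to Gmppa at -0.48, -0.46 and -0.52 log2 in DMSO and at -0.19, 0.50 and 0.43 log2 in DTG. The difference of 0.73 log2 had a two-sided p = 0.1 by exact permutation, which 3 against 3 libraries cannot go below, and 0.15 adjusted over the 9 ratios computed. For Pmm2 to Pmm1 the ratio went from 0.28 ± 0.27 to 0.72 ± 0.10 log2 (SD, n = 3 each, exact permutation p = 0.1, adjusted 0.15).

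**Figure D2:**
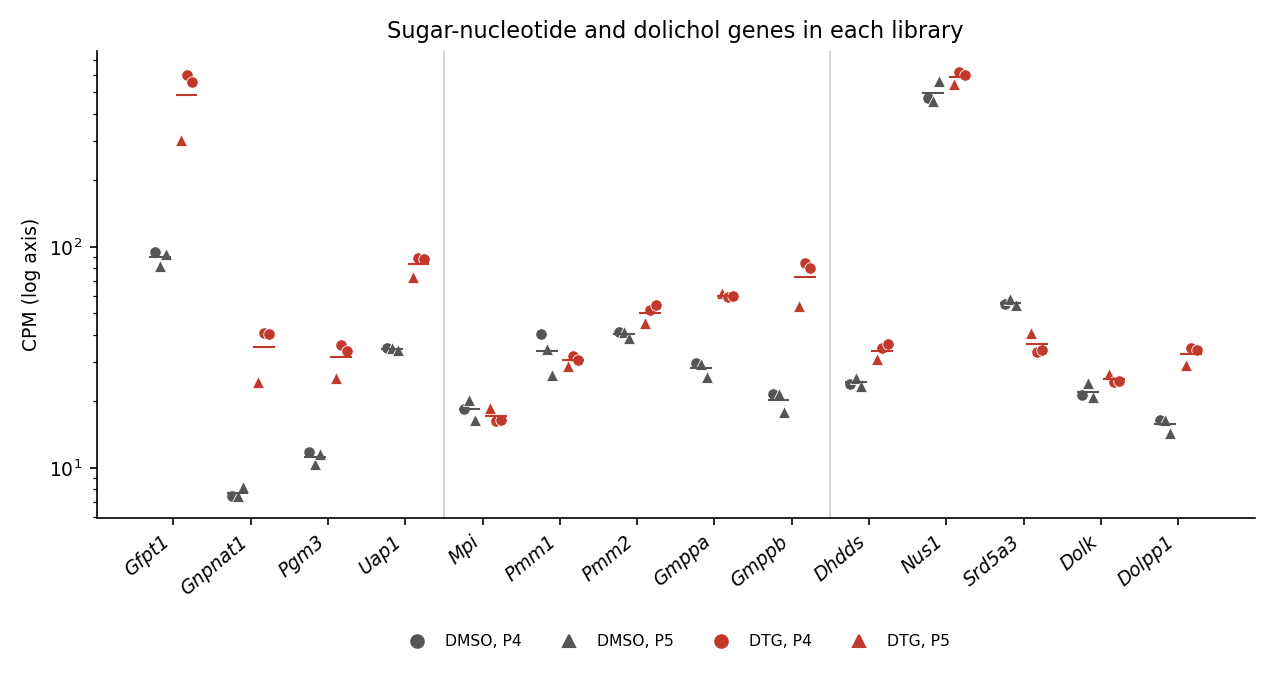
CPM of the sugar-nucleotide and dolichol genes in each of the 6 libraries (log axis), with DMSO in grey and DTG in red, circles for P4 and triangles for P5, and a line at each group mean. The vertical lines part the hexosamine branch, the GDP-mannose branch and dolichol synthesis. The DTG triangle lies below the DTG circles for Gfpt1 (304.0 against 598.7 and 558.7 CPM), Gnpnat1, Pgm3, Uap1 and Gmppb. It also lies below them for Pmm1, Pmm2, Dhdds, Nus1 and Dolpp1, and above them for Mpi, Gmppa, Srd5a3 and Dolk.

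Of the 5 dolichol genes 3 rose and 1 fell, against 27.4% and 29.3% of all genes tested, with a median of 0.24 log2. Dhdds and Nus1 encode the subunits of cis-prenyltransferase, which builds the polyprenol chain. Dhdds was at 24.0, 25.6 and 23.5 CPM in DMSO and at 31.0, 34.8 and 36.2 CPM in DTG, a 1.39-fold rise (0.48 ± 0.09 log2, adjusted p = 0.00104). Nus1 was at 471.2, 459.3 and 562.7 CPM in DMSO and at 547.5, 618.2 and 602.0 CPM in DTG, so DMSO replicate 3 lay above DTG replicate 1. Its difference of 0.24 ± 0.10 log2 was at the threshold (adjusted p = 0.0499), and 9 of 15 alternatives ended the call. Adjusted p was 0.158 and 0.178 with DMSO replicate 1 or 2 left out, and 0.122 and 0.11 with DTG replicate 2 or 3 left out. The ratio of Nus1 to Dhdds went from 4.35 ± 0.21 to 4.12 ± 0.05 log2 (SD, n = 3 each, exact permutation p = 0.1, adjusted 0.15). The difference of -0.23 was -0.11 without DMSO replicate 3.

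Srd5a3, a reductase in the conversion of polyprenol to dolichol, fell. It was at 55.0, 58.4 and 54.5 CPM in DMSO and at 40.9, 33.5 and 34.2 CPM in DTG, with no overlap, a decrease of 1.55-fold (-0.63 ± 0.09 log2, adjusted p = 0.000244) and a difference of -0.69 in P4 and -0.46 in P5 libraries alone. It had the lowest log2 change of the 41 genes. Dolk, the kinase that makes dolichol phosphate, was at 21.3, 24.2 and 20.9 CPM in DMSO and at 26.7, 24.6 and 24.8 CPM in DTG. The groups were narrowly apart and the gene did not pass (0.20 ± 0.09 log2, adjusted p = 0.0856), though it did without DMSO replicate 2 (adjusted p = 0.0494) and with the P tag as a term (0.0493). Dolpp1, the phosphatase that recycles the dolichol pyrophosphate left after transfer of the chain, rose 2.07-fold. It was at 16.5, 16.5 and 14.3 CPM in DMSO and at 29.2, 35.0 and 34.2 CPM in DTG (1.05 ± 0.10 log2, adjusted p = 1.70e-05).

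Assembly of the lipid-linked oligosaccharide rose in 10 of 16 genes and fell in 2, with a median of 0.33 log2. Of all genes tested 27.4% rose and 29.3% fell. Only Alg12 of the assembly genes reached a 2-fold rise. Scaling by library size alone left calls for fewer: 6 rose and 2 fell, since Alg3, Alg8, Dpm1 and Dpm2 no longer passed (adjusted p = 0.261, 0.187, 0.0719 and 0.209). The shares over all genes tested were then 18.0% and 40.6%.

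On the cytosolic face, Dpagt1, which starts the chain by adding GlcNAc phosphate to dolichol phosphate and is the target of tunicamycin, was at 78.0, 85.6 and 78.7 CPM in DMSO and at 109.7, 102.6 and 101.9 CPM in DTG. It rose by 0.37 ± 0.07 log2 (1.30-fold, adjusted p = 0.0017). The partners Alg13 and Alg14, which add the next GlcNAc, did not pass. Alg13 was at 9.18, 7.84 and 10.1 CPM in DMSO and at 9.34, 9.33 and 10.6 CPM in DTG, and Alg14 at 22.2, 27.0 and 25.4 CPM in DMSO and at 29.0, 26.1 and 27.5 CPM in DTG. The groups of both overlapped. Their ratio differed by -0.029 log2 (exact permutation p = 0.9, adjusted 0.9).

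The mannosyltransferases of this face went in both directions. Alg1, which adds the first mannose, was at 29.6, 32.9 and 27.1 CPM in DMSO and at 25.9, 22.2 and 20.6 CPM in DTG, with no overlap, and fell by 0.38 on the log2 scale (SE 0.11, adjusted p = 0.0124). It no longer passed when DMSO replicate 2 (adjusted p = 0.0608), DTG replicate 2 (0.0501) or DTG replicate 3 (0.0767) was left out. Alg1 shares 472 of its 1764 exon bases with Eef2kmt on the opposite strand, which rose by 0.38 ± 0.10 log2. Alg2, which adds the following mannoses, was at 29.1, 31.1 and 33.0 CPM in DMSO and at 55.1, 52.8 and 52.7 CPM in DTG, a 1.73-fold rise (0.79 ± 0.08 log2, adjusted p = 1.91e-05). Alg11, which completes the cytosolic mannoses, was at 15.9, 17.8 and 19.8 CPM in DMSO and at 26.7, 30.7 and 29.7 CPM in DTG, a 1.63-fold rise (0.70 ± 0.10 log2, adjusted p = 0.00024).

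On the lumenal face, the mannosyltransferase gene Alg12 was at 19.2, 20.0 and 17.6 CPM in DMSO and at 41.4, 37.7 and 37.9 CPM in DTG. Its rise of 1.04 ± 0.09 log2 (2.06-fold, adjusted p = 6.11e-06) stood at 0.96 in P4 libraries alone and 1.12 in P5 libraries alone. The other mannosyltransferase genes rose less. Alg9, which acts before and after Alg12, went from 17.1 ± 0.92 to 23.3 ± 0.45 CPM (SD, n = 3 each), a 1.36-fold rise. Alg3, which adds the first lumenal mannose, was at 22.1, 20.9 and 19.2 CPM in DMSO and at 26.0, 25.9 and 24.4 CPM in DTG, a 1.23-fold rise with no overlap. Alg3 shares 143 of its 1613 exon bases with Eef1akmt4 on the opposite strand, which rose by 1.01 ± 0.12 log2.

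The glucosyltransferases that follow differed from each other. Alg6, which adds the first glucose, had the lowest level of the list per kilobase of transcript in both groups. It was at 4.73, 5.34 and 6.15 CPM in DMSO and at 5.44, 5.29 and 4.44 CPM in DTG, with overlapping groups (-0.09 ± 0.14 log2, adjusted p = 0.594). Alg8, which adds the next glucose, was at 13.5, 15.1 and 15.9 CPM in DMSO and at 20.6, 17.2 and 18.7 CPM in DTG and rose by 0.34 ± 0.10 log2 (adjusted p = 0.0168), a call that was lost without DMSO replicate 1 (adjusted p = 0.0723). The ratio of Alg6 to Alg8 was -1.51, -1.50 and -1.37 log2 in DMSO and -1.92, -1.70 and -2.07 log2 in DTG, with no overlap (exact permutation p = 0.1, adjusted 0.15).

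The dolichol-linked donors of mannose and glucose changed by less than 1.6-fold. Alg5, which makes dolichol-phosphate glucose, went from 25.8 ± 2.28 to 38.9 ± 2.40 CPM (SD, n = 3 each), a 1.51-fold rise with adjusted p = 0.000354. Dpm1, the catalytic subunit of dolichol-phosphate mannose synthase, was at 12.4, 14.8 and 16.0 CPM in DMSO and at 16.6, 21.3 and 21.4 CPM in DTG. It rose by 0.46 ± 0.13 log2 (adjusted p = 0.0119), but by 0.76 in P4 and 0.11 in P5 libraries alone, and the call was lost without DMSO replicate 1 (adjusted p = 0.0535). Dpm1 shares 895 of its 2496 exon bases with Gm20716, an overlapping gene model on the same strand, so its count is uncertain. Dpm2 and Dpm3 encode the stabilizing subunits. Dpm2 was at 25.9, 29.1 and 23.8 CPM in DMSO and at 34.1, 30.9 and 33.5 CPM in DTG, a rise of 0.32 ± 0.09 log2 (adjusted p = 0.0146). Dpm3 was at 13.0, 14.9 and 10.9 CPM in DMSO and at 16.7, 12.6 and 13.0 CPM in DTG, with overlapping groups (0.12 ± 0.14 log2, adjusted p = 0.493). The ratio of Dpm1 to Dpm3 went from 0.16 ± 0.34 to 0.49 ± 0.43 log2 (SD, n = 3 each, exact permutation p = 0.3, adjusted 0.386). The difference of 0.33 was 0.58 and 0.53 without DTG replicate 1 or DMSO replicate 3, and 0.22, 0.20 and 0.22 without DMSO replicate 1, DTG replicate 2 or DTG replicate 3.

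Mpdu1, needed for the use of both dolichol-linked donors, was at 39.0, 38.1 and 32.3 CPM in DMSO and at 29.4, 30.7 and 30.5 CPM in DTG. The groups did not overlap, and it fell by 0.27 on the log2 scale (SE 0.09, adjusted p = 0.0248). It no longer passed when DMSO replicate 1 or 2 (adjusted p = 0.0942 and 0.0869) or DTG replicate 1, 2 or 3 (0.0657, 0.0821 and 0.0948) was left out.

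Oligosaccharyltransferase rose in 10 of 11 genes, with a median of 0.98 log2, and fell in 0, against 27.4% and 29.3% of all genes tested. It exists as 2 complexes with a shared set of subunits: the STT3A complex sits at the translocon and glycosylates proteins as they enter the ER, and the STT3B complex acts on sites that were skipped. Scaling by upper quartile or by library size alone also gave 10, and 10 rose without each library in turn. With library size alone 18.0% of all genes tested rose.

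The catalytic subunit genes rose by the same fold. Stt3a was at 181.7, 181.5 and 180.7 CPM in DMSO and at 382.3, 428.6 and 426.5 CPM in DTG, a 2.27-fold rise (1.19 ± 0.08 log2, adjusted p = 1.23e-06). Stt3b was at 109.7, 109.4 and 123.5 CPM in DMSO and at 223.3, 288.6 and 265.2 CPM in DTG, also 2.27-fold (1.18 ± 0.10 log2, adjusted p = 8.30e-06). For both, DTG replicate 1 was the lowest DTG library and lay far above DMSO. Their ratio was 0.67 ± 0.10 log2 in DMSO and 0.68 ± 0.10 log2 in DTG (SD, n = 3 each, exact permutation p = 0.9, adjusted 0.9), a test that at this size cannot show that they are equal.

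Ostc and Magt1, each in only 1 of the complexes, had the highest log2 changes among the 11 genes. The products of Ostc and Krtcap2 tie the STT3A complex to the translocon. Ostc was at 66.7, 66.3 and 62.5 CPM in DMSO and at 194.9, 217.3 and 212.5 CPM in DTG, a 3.20-fold rise (1.68 ± 0.08 log2, adjusted p = 1.83e-07). Krtcap2 was at 49.1, 52.1 and 43.5 CPM in DMSO and at 103.5, 102.8 and 107.6 CPM in DTG, a 2.17-fold rise (adjusted p = 3.46e-06). Magt1, the oxidoreductase subunit of the STT3B complex, was at 61.4, 57.2 and 71.8 CPM in DMSO and at 179.8, 179.6 and 180.4 CPM in DTG. It rose by 1.5 ± 0.09 log2 (2.84-fold, adjusted p = 9.79e-07), with nearly the same level in all 3 DTG libraries and no overlap.

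The shared subunits rose by less than 2-fold, with 1 exception that did not pass. Rpn1 was at 222.7, 238.6 and 225.3 CPM in DMSO and at 453.4, 457.1 and 443.1 CPM in DTG (0.98 ± 0.07 log2, adjusted p = 2.77e-06). Its partner ribophorin gene Rpn2 was at 329.9, 340.8 and 328.8 CPM in DMSO and at 620.1, 534.0 and 534.2 CPM in DTG (0.76 ± 0.08 log2, adjusted p = 3.57e-05). The ratio of Rpn1 to Rpn2 was -0.57, -0.51 and -0.55 log2 in DMSO and -0.45, -0.22 and -0.27 log2 in DTG, with no overlap (exact permutation p = 0.1, adjusted 0.15). Ddost, a non-catalytic subunit gene, went from 131 ± 10.6 to 253 ± 13.3 CPM (SD, n = 3 each), Dad1 from 46.6 ± 8.22 to 84.8 ± 0.89 CPM and the small subunit gene Tmem258 from 58.4 ± 7.37 to 108 ± 3.21 CPM. Ost4, which encodes a very small membrane subunit, was at 114.5, 124.0 and 92.2 CPM in DMSO and at 124.9, 106.6 and 114.9 CPM in DTG. The groups overlapped (0.07 ± 0.11 log2, adjusted p = 0.628). Ost4 shares 651 of its 1272 exon bases with Agbl5 on the opposite strand, which fell by 0.58 on the log2 scale (SE 0.09).

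**Figure D3:**
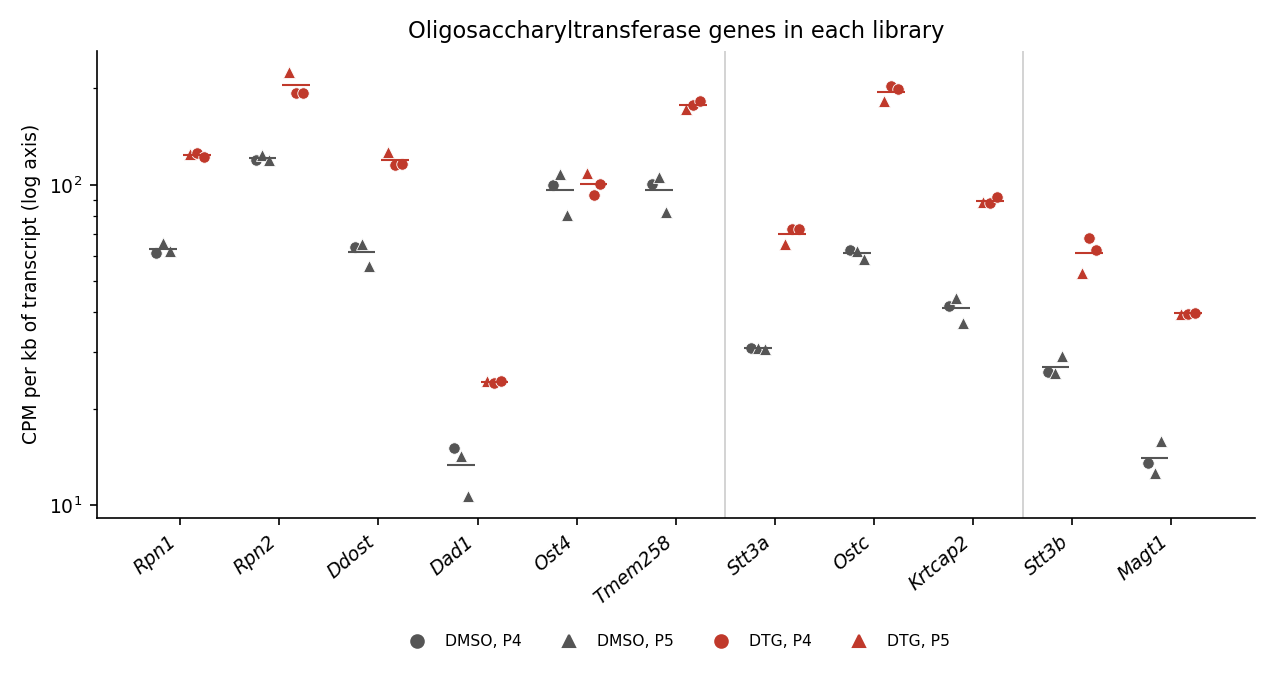
CPM per kilobase of transcript of the oligosaccharyltransferase genes in each of the 6 libraries (log axis), with DMSO in grey and DTG in red, circles for P4 and triangles for P5, and a line at each group mean. The vertical lines part shared subunits, the STT3A complex and the STT3B complex. The DTG points lie above the DMSO points for every gene but Ost4, whose groups overlap.

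Levels of different genes were compared per kilobase of the longest principal transcript, so a gene expressed mostly as a shorter form would be understated. In DMSO, Rpn2 was highest of the 41 genes at 121 CPM per kb, followed by Nus1 at 108.1, Ost4 at 96.3 and Tmem258 at 96.3, and neighbours in this order overlapped between libraries. In DTG, Rpn2 was at 204.2 CPM per kb, Ostc at 195.2 and Tmem258 at 177.7, and Ostc had moved from rank 7 to rank 2. Gfpt1 moved from rank 22 (14.4 CPM per kb) to rank 9 (78.1) and Srd5a3 from rank 10 (32.0) to rank 23 (20.7). With the union of exons as length, Gfpt1 moved from rank 24 to 10 and Srd5a3 from rank 11 to 23. Summed over a step, sugar-nucleotide genes went from 119 ± 8.69 to 262 ± 43.2 CPM per kb (SD, n = 3 each) and the transferase from 626 ± 39.1 to 1207 ± 4.43, ratios of 2.20 and 1.93. Assembly genes went from 220 ± 12.3 to 271 ± 10.1 and dolichol genes from 165 ± 10.2 to 186 ± 7.32, ratios of 1.23 and 1.12. Nus1 was the largest part of the dolichol sum, at 108.1 CPM per kb in DMSO and 128 in DTG. The ratio of 1.12 thus mostly follows Nus1, while Dolpp1 rose 2.07-fold and Srd5a3 fell 1.55-fold.

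The DTG libraries differed within some steps more than over the list. Summed over all 41 genes, the level was 1883 CPM per kb in DTG replicate 1, 1948 in replicate 2 and 1944 in replicate 3 (SD 36.2, against 47.0 in DMSO). Sugar-nucleotide genes summed to 213 in DTG replicate 1, against 291 and 283 in replicates 2 and 3, and dolichol genes to 178 against 191 and 189. For assembly and transferase genes DTG replicate 1 had the highest sum of the DTG libraries (282 and 1211). Within the transferase, DTG replicate 1 was highest only for the shared subunits (783, against 730 and 740 in replicates 2 and 3). It was lowest for the STT3A complex (336, against 364 and 364) and the STT3B complex (92.6, against 108 and 103). Of the 30 genes that rose, DTG replicate 1 was the lowest DTG library in 16, DTG replicate 2 in 9 and DTG replicate 3 in 5. DTG replicate 1 was lowest in all 4 hexosamine genes but in 1 of the 5 shared transferase subunits that rose. The median difference over the list was 0.68 log2 in P4 libraries alone and 0.50 in P5 libraries alone. That of the sugar-nucleotide genes was 1.34 log2 in P4 libraries alone and 1.14 in P5 libraries alone, and that of the transferase genes 1.01 and 0.98. Of the 41 genes, 37 had the same sign within both tags. Without DTG replicate 1, Gfpt1 rose by 2.72 log2, Gnpnat1 by 2.43 and Gmppb by 2.05. The P tag differs between DTG replicate 1 and the other DTG libraries, and whether it has a part in this was not tested. A treatment by tag interaction was fitted but cannot decide it, because only 1 DMSO library is P4 and only 1 DTG library is P5.

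**Figure D4:**
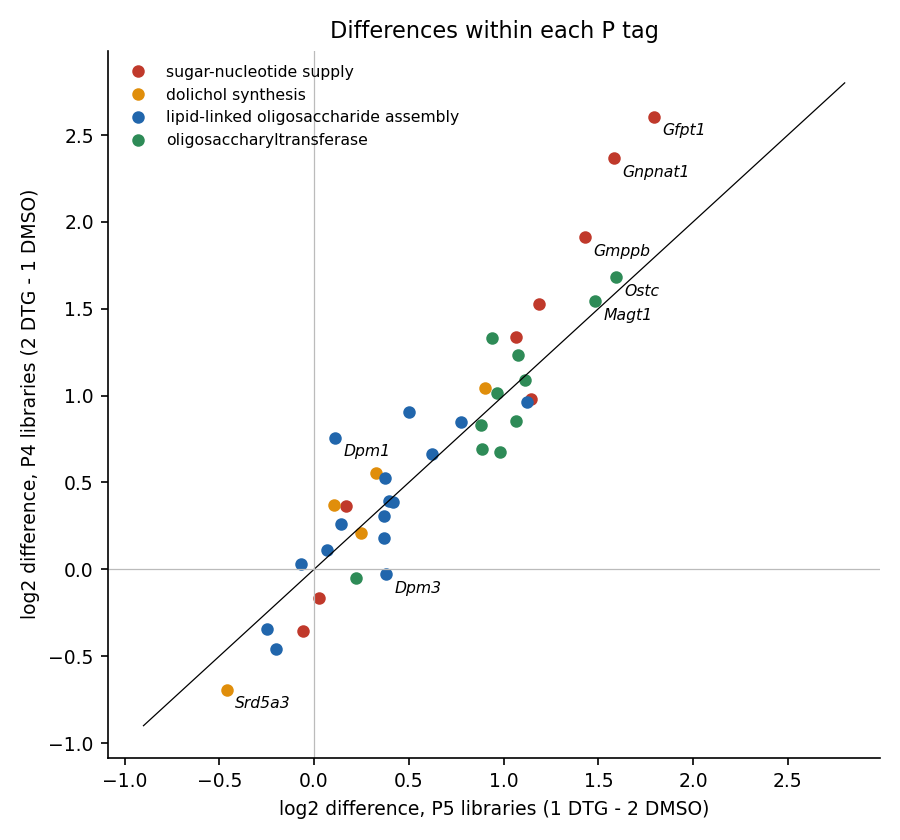
Log2 difference between DTG and DMSO of the 41 genes within the P5 libraries (horizontal axis, 1 DTG and 2 DMSO) and within the P4 libraries (vertical axis, 2 DTG and 1 DMSO), coloured by step, with the line of equal difference. Gfpt1 (2.61 in P4 and 1.80 in P5), Gnpnat1 and Gmppb lie above the line, while the transferase genes scatter on both sides of it.

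Genes that feed dolichol synthesis rose in 7 of 9 cases and fell in 0, with a median of 0.73 log2, and 6 rose and 1 fell with library size alone. The shares over all genes tested were 27.4% and 29.3%, or 18.0% and 40.6% with library size alone. Fdps, which makes the farnesyl diphosphate on which dolichol is built, went from 40.4 ± 3.76 to 161.6 ± 13.1 CPM (SD, n = 3 each), a 4.00-fold rise (adjusted p = 2.35e-07). Mvd, the mevalonate diphosphate decarboxylase gene, went from 12.3 ± 2.64 to 65.2 ± 13.1 CPM, a 5.29-fold rise. These genes also serve cholesterol synthesis.

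Among 10 hexosamine and ER glycosylation genes outside the list, 9 were tested, of which 3 rose and 3 fell, at a median of 0.15 log2. Library-size scaling gave 1 and 4, at a median of -0.02. These counts lie near the shares over all genes tested, 27.4% and 29.3%, or 18.0% and 40.6% with library size alone. Gfpt2, the paralog of Gfpt1, stayed low, going from 1.78 ± 0.64 to 5.26 ± 2.22 CPM, a 2.92-fold rise (adjusted p = 0.00866) that was lost in 2 of 15 alternatives (0.0771 at most). The ratio of Gfpt1 to Gfpt2 was 5.70 ± 0.53 log2 in DMSO and 6.58 ± 0.22 log2 in DTG (exact permutation p = 0.1, adjusted 0.15). Gnpda1, a glucosamine 6-phosphate deaminase gene that runs the route backwards, fell by 0.44 on the log2 scale (SE 0.09, adjusted p = 0.00258). Amdhd2, the N-acetylglucosamine 6-phosphate deacetylase gene, fell by 0.40 (SE 0.12, adjusted p = 0.0141, with overlapping groups). Oga, which removes O-linked GlcNAc from proteins, rose by 0.30 ± 0.09 log2 (adjusted p = 0.0149). The calls of Oga and Amdhd2 were lost in 5 and 4 of the 15 alternatives (adjusted p at most 0.21 and 0.068).

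Genes that trim the transferred chain and check folding of glycoproteins in the ER rose in 10 of 14 cases and fell in 2, with a median of 0.49 log2. The shares over all genes tested were 27.4% and 29.3%. Calr, a lectin chaperone gene, went from 652.7 ± 11.6 to 4926 ± 300 CPM (SD, n = 3 each), a 7.55-fold rise, and its oxidoreductase partner Pdia3 from 786 ± 40.8 to 2695 ± 146 CPM, a 3.43-fold rise. Ngly1, which strips N-glycans from misfolded proteins in the cytosol, and Man1b1, a mannosidase, fell by 0.30 and 0.22 on the log2 scale (SE 0.09 and 0.07, adjusted p = 0.0123 and 0.0255). Their calls were lost in 2 and 6 of 15 alternatives (adjusted p at most 0.0604 and 0.207).

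Other users of dolichol-phosphate mannose, in O-mannosylation, C-mannosylation and the GPI anchor, rose in 2 and fell in 4 of 13 genes tested, with a median of -0.09 log2, or in 1 and 6 with library size alone. Over all genes tested 27.4% rose and 29.3% fell, or 18.0% and 40.6% with library size alone, so the falls of this list lie near those shares. Tmem260 and Dpy19l3, O- and C-mannosyltransferase genes, fell by 0.85 and 0.79 on the log2 scale (SE 0.09 each, adjusted p = 2.21e-05 and 6.06e-05). Tmtc2, of the O-mannosyltransferases of cadherins, rose 2.11-fold, and Pigm, which adds the first mannose of the GPI anchor, 1.32-fold, a call lost in 1 of 15 alternatives (adjusted p = 0.0596). Tmtc1 had 19, 11 and 12 counts in the DMSO libraries and 0 in each DTG library.

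Golgi genes that process the N-glycan after it leaves the ER fell in 10 of 21 cases and rose in 5, with a median of -0.34 log2, or in 12 and 2 with library size alone. Of all genes tested 29.3% fell and 27.4% rose, or 40.6% and 18.0% with library size alone. Mgat4a, which adds a GlcNAc branch, was at 374.8, 357.9 and 414.2 CPM in DMSO and at 187.8, 180.6 and 181.0 CPM in DTG, a 2.09-fold decrease (-1.06 ± 0.08 log2, adjusted p = 3.24e-06). Man2a1, the Golgi mannosidase gene, went from 479 ± 55.1 to 236 ± 18.7 CPM (SD, n = 3 each), a 2.03-fold decrease. Mgat2, which starts the branch on the other arm, rose 1.64-fold from 77.9 ± 2.43 to 127.5 ± 9.05 CPM, and B4galt3, a galactosyltransferase gene, 1.32-fold.

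**Figure D5:**
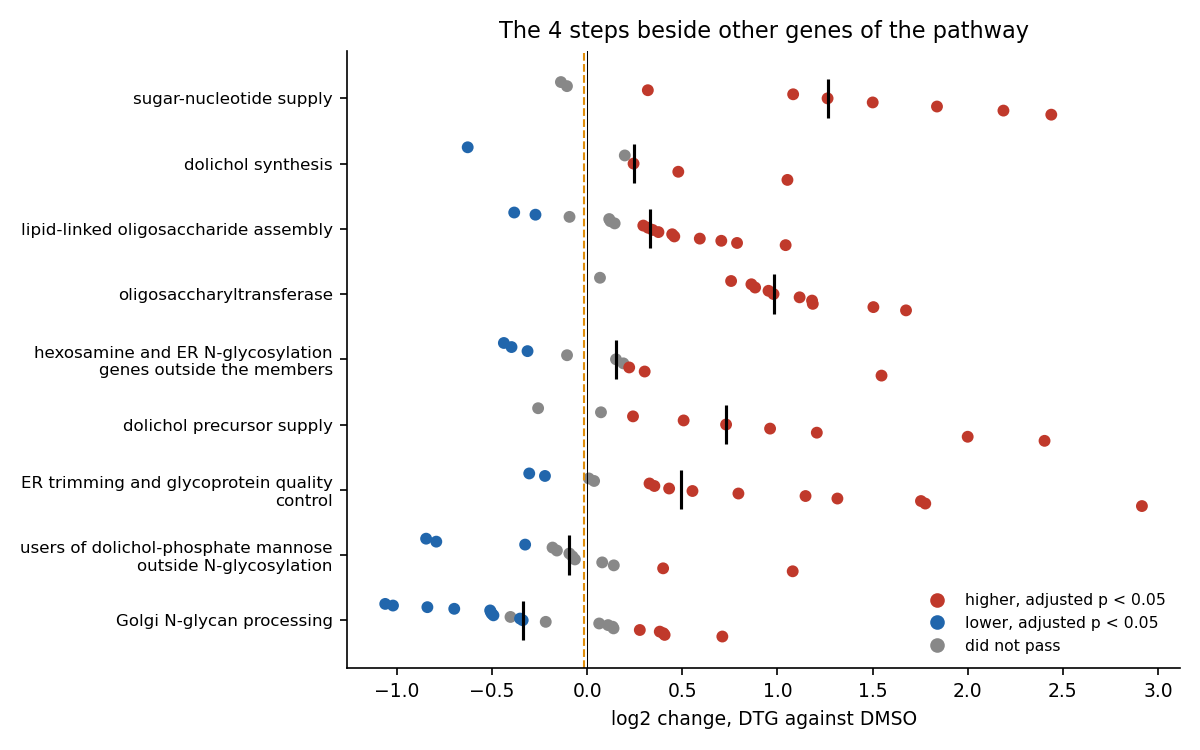
Log2 change of each tested gene in DTG against DMSO (horizontal axis) for the 4 steps and 5 lists of other genes of the pathway, with red for genes that rose, blue for genes that fell, grey for genes that did not pass, and a black bar at each median. The dashed line is the median of all genes tested, and Tmtc1, with 0 counts in DTG, is left out. Medians run from 1.26 for sugar-nucleotide supply to -0.34 for Golgi processing.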

How the data were processed

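RNA was measured with a strand-preserving poly(A) kit in 6 libraries, 3 per group. The authors deposited raw counts per Ensembl gene, with no normalization, per the file header and its whole-number values; the build was GRCm39, per the submitters' processing notes. The sources used here do not give the aligner, annotation version, counting tool or its strand setting. Columns were matched to samples by library name; that of DTG replicate 1 reads DIG, as in its description. Gene names matched 38606 identifiers (89.2%); names, transcript lengths and exon overlaps came from tables of another build (GENCODE M21 and RefSeq, GRCm38).

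Tests on the counts used edgeR 4.0.16 in R 4.3.3 (filterByExpr, TMM, robust quasi-likelihood F-test, group as the only term), and p-values were adjusted by Benjamini-Hochberg across the 14101 tested genes, with calls made under 0.05. SE is the absolute log2 change over the square root of the F value. Ratios were taken within libraries after adding 0.5 counts and tested by exact permutation. Differences within a P tag are of log2(CPM + 0.5). The fit was also run on simulated counts, in which few genes changed and in both directions alike. That run does not bear on the choice of scaling. Alternatives were DESeq2 1.42.0, limma-voom (limma 3.58.1), RLE, upper-quartile and library-size scaling, count filters, a stricter threshold, a replicate block, a tag term and dropping 1 library at a time; the interaction, the exon-union length and the neighbour comparisons were chosen after seeing the data. The members and lists were chosen with earlier results of these data known. Values in each library are given for the 3 smallest p of each step, genes that fell, ratio pairs and genes whose call was lost; further members have means, and of each other list the 2 smallest p in each direction are named. Same-numbered samples are not said to be paired. Figures were drawn with matplotlib 3.10.9.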

Additional observations from a re-analysis of the deposited data

How the results depend on the processing

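DESeq2, limma-voom, RLE factors and no count filter changed the call of 0 of the 41 genes, and no called gene changed direction under any alternative run. The counts over the list moved with scaling: 30 rose with TMM, 26 with upper-quartile factors and 24 with library size alone, which shifts the median of all genes to -0.11 and -0.18 log2. Of the assembly genes 10 rose, but 6 with library size alone and 6 at a threshold of 0.01, where 0 of them fell and 1 of the whole list fell. The shares over all genes at 0.01 are not given here. Leaving out each library in turn gave 27 to 30 genes higher and 1 to 4 lower over the list, 8 to 10 higher and 0 to 2 lower in assembly, and 0 to 1 lower in sugar-nucleotide supply. The ratio of Stt3a to Stt3b differed by 0.0078 log2 and ranged from -0.052 to 0.061, with the sign reversed without DMSO replicate 3 (-0.052) or DTG replicate 1 (-0.04). That of Alg13 to Alg14 differed by -0.029 and ranged from -0.19 to 0.066, with the sign reversed without DMSO replicate 1 or 3 (0.066 and 0.035) or DTG replicate 1 (0.04). The cause was not tested. With the replicate number as a block 29 rose and 3 fell, and the call lost was that of Nus1 (adjusted p = 0.0616). The deviations of same-numbered samples correlated at -0.295, -0.106 and -0.074, so the numbers were not taken to pair the samples. The 4 pairs of a DMSO and a DTG library with the same P tag correlated at 0.134 to 0.226, and the 5 pairs with different tags were all below 0 (-0.295 to -0.074). Deviations were taken from the mean of each group, so these correlations are not independent of each other. In each group a single library carries the other tag, so the tag cannot be told apart from 1 odd library per group. With the tag as a term 30 rose and 3 fell, as without it. The call of Nus1 was lost (adjusted p = 0.0714) and Dolk passed as higher (adjusted p = 0.0493).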

Other observations

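Across the 41 genes, which are not independent and share these libraries, the log2 change had a Spearman rho of -0.07 with the level per kilobase in DMSO and of 0.42 with the length of the principal transcript. Over 13732 genes tested with a length, the rho of length and change was -0.06.

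In the annotation at hand, 12 of the 41 genes share exon bases with a gene on the opposite strand. Beyond those named above, Gmppb shares 751 of 2702 exon bases with Rnf123, which fell by 0.47 on the log2 scale (SE 0.09), and Pgm3 shares 1027 of 2667 with Dop1a, which did not pass (-0.10 ± 0.07 log2). Tmem258 shares 130 of 698 bases with Fen1, which fell by 0.56 (SE 0.11), and Dolpp1 59 of 2458 with Crat, which fell by 0.89 (SE 0.12). Pmm2 shares 39 of 2854 bases with Tmem186, which did not pass (0.17 ± 0.08 log2). The remaining overlaps, of Mpdu1, Rpn1 and Rpn2, are with genes of at most 7 counts in any library. The part of shared reads in the values of these genes was not tested.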
